A study of Mus musculus with 18 samples.

Results

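Etoposide treatment was compared with differentiation in C2C12 cells that carried wild-type TAF3 and no shRNA against PIP4K2B, by 3 arrays of each treatment out of 18 arrays in 6 groups. C2C12 is an established mouse myoblast line, whose cells leave the cell cycle and fuse into myotubes when serum is reduced. In all 6 arrays of the comparison the cells had been depleted of their endogenous TAF3, a subunit of the general transcription factor TFIID, and rescued with murine wild-type TAF3. The paper's supplement describes stable retroviral depletion and rescue, so that the cells carried an introduced TAF3 and are not the parental line. The labels name no control shRNA for them, whereas figure legends of the paper give the control cells a control hairpin (shX). The differentiated cells (WT-TAF3 differentiated) had been grown to 80% confluency in Hams F12 with 10% FCS and then kept in Hams F12 with 2% horse serum for 2 days, the time in the array titles, while the design text of the series gives 3 days. The etoposide cells (WT-TAF3 etoposide) had likewise been grown to 80% confluency with 10% FCS. They received 10 µM etoposide for 7 hours, and their medium during that time is not given in the sources used here. Drug, medium and time therefore differ together between the groups and cannot be told apart, and with no untreated group in the design a transcript that was higher after etoposide cannot be told apart from one that was lower after differentiation. The remaining 12 arrays hold the same treatments in cells with an shRNA against PIP4K2B, a kinase that converts the nuclear lipid PI5P, rescued either with wild-type TAF3 (WT-TAF3 sh-PIP4K2B) or with KK-TAF3, a mutant whose PHD finger no longer binds phosphoinositides (KK-TAF3 sh-PIP4K2B). Their treatment differences share no array with the one described here.

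Etoposide blocks topoisomerase II after it has cut DNA and so leaves DNA breaks, which activate the kinases ATM and CHK2 and stabilise the transcription factor p53. Active p53 raises genes for cell cycle arrest, apoptosis, metabolism and its own inhibitor MDM2, and genes of the G2 and M phases are repressed through the DREAM complex, which contacts CHR elements of their promoters, while CCAAT boxes nearby are bound by the activator NF-Y. Myogenic differentiation runs through MYOD1, MYF5 and MYOG, is held back by the ID proteins, and ends in fusion by myomaker and in assembly of the sarcomere. IGF1 and IGF2, made by the muscle cells themselves, drive the process through IGF1R and the IRS adaptors.

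Values below are log2 signals after RMA normalization, so that a difference of 1 is a doubling, and they are given for arrays 1, 2 and 3 of a group in that order. Differences are the mean of the etoposide arrays minus the mean of the differentiated arrays, with the standard error (SE) and the Benjamini-Hochberg adjusted p of the limma fit. A gene was counted as higher or lower when its adjusted p was under 0.05 and its change above 1.4-fold. The medians of the 6 arrays lay between 7.32 and 7.41, and no 2 arrays of a group correlated below r = 0.994. A signal was called dim when it was under 6.89, the 95th percentile of 1190 olfactory and vomeronasal receptor genes. Of 19938 genes, 940 were higher after etoposide (4.71%) and 582 were lower (2.92%). For all of these genes but the small nucleolar RNA Snord53 every etoposide array lay on the same side of every differentiated array, which the limits nearly fix, against 44.2% of all genes. RNA came from whole cultures, so that fewer cells expressing a gene and less RNA per cell cannot be told apart.

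Targets of p53 were more often higher than lower after etoposide. Of 59 measured targets 22 were higher (37.3%) and 3 were lower (5.08%), against 4.71% and 2.92% of all genes. The median difference was 0.38 against -0.05 over all genes. Sesn2, a stress-induced inhibitor of mTORC1, had signals of 9.40, 9.39 and 9.41 in differentiated and 11.18, 11.22 and 10.94 in etoposide cells. It was 3.28-fold higher, a difference of 1.71 (SE 0.09, adjusted p = 2.11e-10). Sesn2 is also a member of the amino acid stress list below. Mdm2, the ubiquitin ligase that degrades p53, had signals of 11.32, 11.23 and 11.31 in differentiated and 12.28, 12.14 and 12.36 in etoposide cells, a difference of 0.97 (SE 0.07, adjusted p = 6.07e-09). In both genes the groups lay far apart in relation to the spread of either.

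The higher targets came from each branch of the pathway. Among feedback genes, Ccng1 differed by 0.57, Trp53inp1 by 1.21 and Pidd1, a scaffold of caspase-2 activation, by 1.19, with 4 of 9 measured members higher. Among genes of arrest, Btg2, an antiproliferative cofactor, had signals of 9.10, 9.06 and 9.12 in differentiated and 10.20, 10.32 and 10.39 in etoposide cells and differed by 1.21 (SE 0.07, adjusted p = 3.2e-10). Ptprv, a phosphatase, differed by 1.25, and 3 of 11 measured arrest genes were higher. Among the 13 measured genes listed under apoptosis 4 were higher, among them the nuclease gene Aen (0.89) and the death receptor gene Eda2r (0.85). The count includes Dcxr (1.21), which is listed there although it encodes a carbonyl reductase. Of 19 genes of metabolism and other functions 9 were higher, including Sesn2, the thiamine transporter Slc19a2 (1.56) and Zfp365 (1.25). The translesion polymerase Polk (1.08) was among the 2 of 7 repair genes that were higher. Aen, Eda2r and Polk, like some genes named below (Cdc20, Foxm1, Kif23, Racgap1), were picked after their values were seen.

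Several well-known p53 targets were not higher by these limits. Pmaip1, which encodes the BH3-only protein NOXA, had signals of 7.41, 7.83 and 7.54 in differentiated and 7.55, 7.73 and 7.69 in etoposide cells, and the groups overlapped (0.06, SE 0.09, adjusted p = 0.663). Bbc3, which encodes PUMA, differed by 0.25 (SE 0.11, adjusted p = 0.113) and the death receptor Fas by 0.46 (SE 0.09, adjusted p = 0.000689), where Fas was dim on the differentiated arrays and past the limit on p but under 1.4-fold. Plk2 differed by 0.07 (SE 0.08, adjusted p = 0.575). Gadd45a, a stress sensor, was lower after etoposide, with signals of 10.39, 10.44 and 10.41 in differentiated and 9.55, 9.62 and 9.67 in etoposide cells and a difference of -0.80 (SE 0.07, adjusted p = 2.27e-07). Sesn1 was lower as well (-0.52), and lost the call when etoposide array 2 was left out. Trp53i11, whose name records an induction by p53, was among the genes with the largest falls of all, with 11.22, 11.10 and 11.05 in differentiated and 8.47, 8.47 and 8.47 in etoposide cells, a difference of -2.66 (SE 0.08, adjusted p = 9.57e-14). Its 3 etoposide arrays had the same signal to the second decimal.

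**Figure D1:**
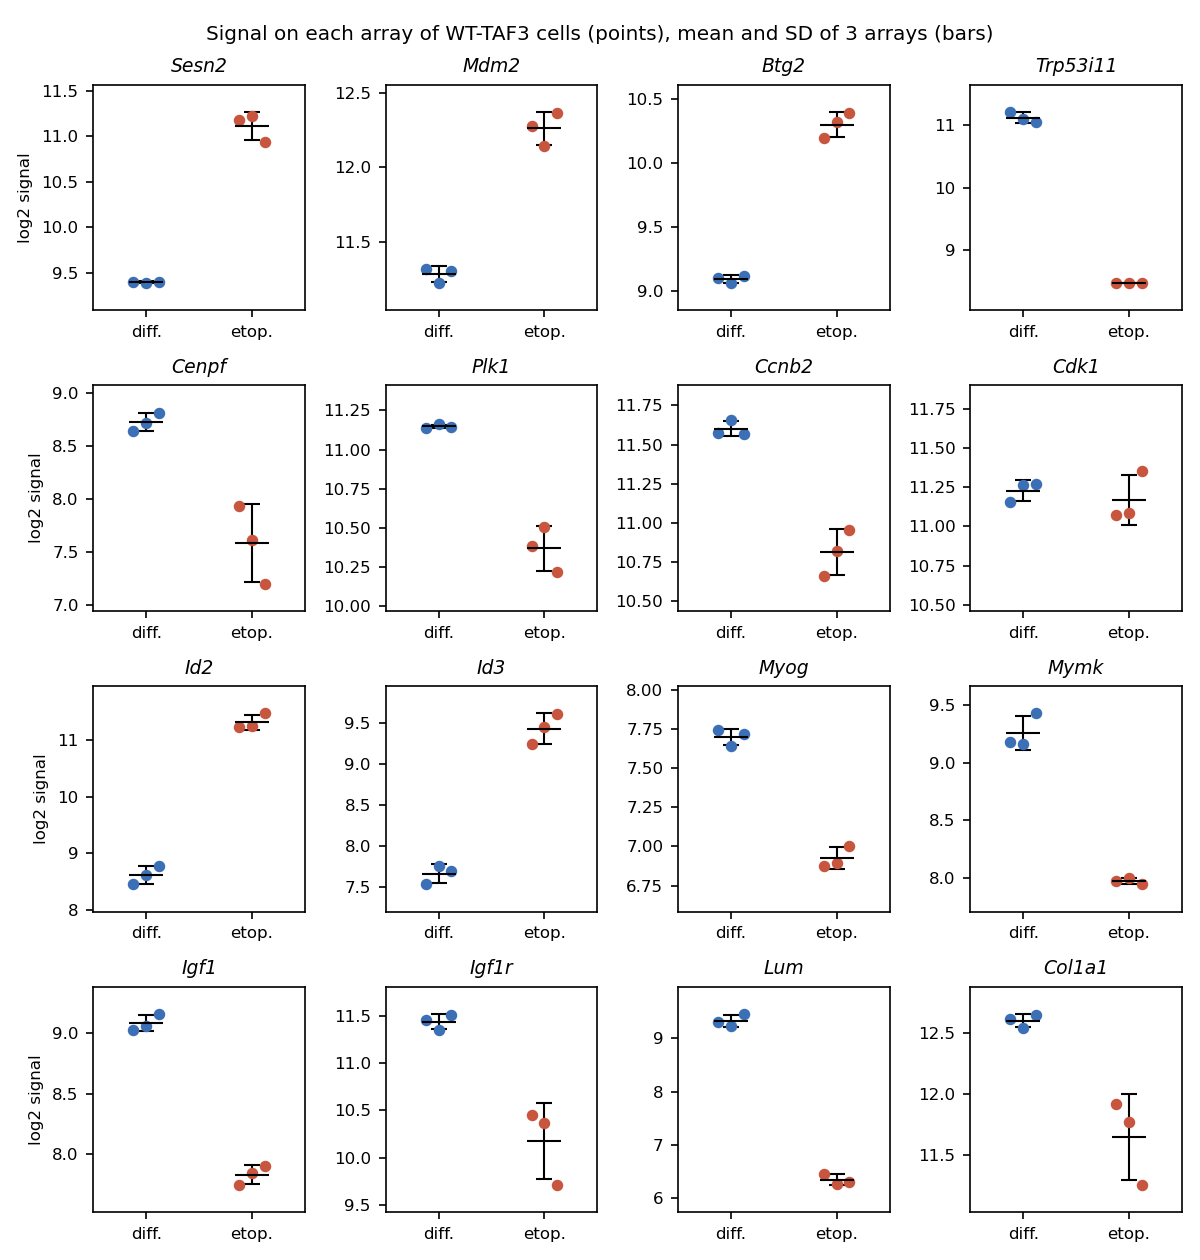
Log2 signal (vertical axes, each panel with its own range of values) of 16 genes on the 3 differentiated (diff., blue) and the 3 etoposide (etop., red) arrays of WT-TAF3 cells. Points are arrays 1 to 3 from left to right, and bars give the mean and SD. For Cdk1 the groups overlap. For the other 15 genes every array of one group lies beyond every array of the other. Etoposide array 3 is the lowest of its group for Cenpf, Igf1r and Col1a1.

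Genes of the G2 and M phases were far more often lower than higher after etoposide, when compared with differentiated cells. Of 73 measured genes 29 were lower (39.7%) and 1 was higher (1.37%), against 2.92% and 4.71% of all genes. The median difference was -0.41, and 63 of the 73 differences were below 0. The share was 17 of 37 among spindle and kinetochore genes, 4 of 12 among kinases, 4 of 13 among cyclins and their regulators and 4 of 11 among chromatin genes. Letters of the CHR and CCAAT elements were frequent in their promoters. In the RefSeq promoters (GRCm38.p6, 250 bases before to 50 after the start), the CHR letters TTTGAA and their variant form TTCGAA, read on both strands, stood in 22 of 26 promoters of the lower G2 and M genes (84.6%), in 46 of 64 of the whole list (71.9%) and in 16.5% of the 19116 promoters of tested genes. Over the promoters of all lower genes the share was 19.3%. CCAAT stood in 76.9% of the promoters of the lower genes, in 71.9% of the list and in 37.4% of all promoters. Below, the CHR and CCAAT letters are in capitals, each sequence runs 5′ to 3′ on the strand of its gene, and positions count from the start site as 1. They are shown as promoters of genes that fell in which both elements stand, at varying distances. Promoters of Ncapg2, Cep55, Kif2c and Anln, which were lower too, held CHR letters and no CCAAT letters.

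Cenpf, chr1:189688071-189688226, minus strand, CHR from 3: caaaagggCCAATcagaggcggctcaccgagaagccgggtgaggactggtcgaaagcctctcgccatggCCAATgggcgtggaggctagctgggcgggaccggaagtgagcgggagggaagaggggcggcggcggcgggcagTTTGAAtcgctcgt

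Mki67, chr7:135716464-135716575, minus strand, CHR from -98: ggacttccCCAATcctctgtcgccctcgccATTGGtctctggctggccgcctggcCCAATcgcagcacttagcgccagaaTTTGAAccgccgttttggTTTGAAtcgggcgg

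Ccnb2, chr9:70421537-70421649, minus strand, CHR from 5: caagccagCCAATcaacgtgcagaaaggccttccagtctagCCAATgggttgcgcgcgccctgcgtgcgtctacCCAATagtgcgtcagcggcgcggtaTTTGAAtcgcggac

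Cdc20, chr4:118437338-118437404, minus strand, CHR from -18: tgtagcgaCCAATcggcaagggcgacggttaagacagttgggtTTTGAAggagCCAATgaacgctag

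Kif23, chr9:61946784-61946814, minus strand, CHR from 3: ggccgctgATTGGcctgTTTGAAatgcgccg

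Racgap1, chr15:99651638-99651676, minus strand, CHR from 6: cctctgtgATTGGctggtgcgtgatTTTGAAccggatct

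Plk1, chr7:122159413-122159478, plus strand, CHR from 31: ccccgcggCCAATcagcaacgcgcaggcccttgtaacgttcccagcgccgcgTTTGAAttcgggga

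The values of these genes were as follows. Cenpf, a kinetochore protein with the largest fall of the list, had signals of 8.64, 8.71 and 8.81 in differentiated and 7.93, 7.61 and 7.20 in etoposide cells (-1.14, SE 0.14, adjusted p = 8.59e-06). Mki67, the proliferation marker Ki-67, had signals of 10.84, 10.76 and 10.93 in differentiated and 10.19, 9.71 and 9.25 in etoposide cells (-1.13, SE 0.18, adjusted p = 0.000123). The etoposide arrays of both genes were more spread than the differentiated ones, with array 3 the lowest, but all lay below the differentiated arrays. Ccnb2, cyclin B2, had signals of 11.58, 11.66 and 11.57 in differentiated and 10.66, 10.82 and 10.96 in etoposide cells (-0.79, SE 0.08, adjusted p = 5.21e-07), and Plk1, the polo-like kinase of mitotic entry, 11.14, 11.16 and 11.14 in differentiated and 10.38, 10.50 and 10.22 in etoposide cells (-0.78, SE 0.09, adjusted p = 1.6e-06). For these the groups were separated by more than the range of either. Cdc20, the activator of the anaphase-promoting complex, differed by -0.50 and lost the call without differentiated array 3 or etoposide array 2. Kif23, a kinesin of the central spindle, differed by -0.56 and its partner Racgap1 by -0.54.

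Other genes of the list ranged widely. Bub1b (-0.94) and Kif14 (-0.85), Nuf2 (-0.77), Cenpe (-0.77) and Hmmr (-0.76) of the spindle, Ccna2 (-0.76), Cdc25c (-0.58) and the transcription factor Foxm1 (-0.66) were all lower. Cdk1, the kinase that these cyclins activate, was not past the threshold (-0.06, SE 0.09, adjusted p = 0.645). The letters TTTGAA stand at 2 places in its promoter too, at -15 and -71. Aurka (-0.29, SE 0.07, adjusted p = 0.00515) and Aurkb (-0.24, SE 0.07, adjusted p = 0.0111) differed by less than 1.4-fold, and so did Top2a, the form of topoisomerase II found in dividing cells and a target of etoposide (-0.41, SE 0.09, adjusted p = 0.0014). Cdc25b, a phosphatase that activates CDK1, was the member that was higher, with signals of 9.73, 9.84 and 9.71 in differentiated and 10.47, 10.56 and 10.52 in etoposide cells (0.76, SE 0.08, adjusted p = 1.25e-06), and its promoter holds TTCGAA at position 8.

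Cdc25b, chr2:131186947-131186968, plus strand, CHR from 8: tgttatttTTCGAAtatataag

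Genes of the S phase were mostly not past the threshold. Of 69 DNA replication genes 2 were higher, E2f2 (0.53) and Pole2 (0.61), and Pola1 (-0.58) was lower, with a median of -0.01. The lower count was 2 without differentiated array 1 or 2 or etoposide array 2, and 4 without etoposide array 1 or with repeated quantile normalization, which left 1 higher. These shares, 2.90% and 1.45%, were under those of all genes (4.71% and 2.92%). Pcna, the polymerase clamp, differed by -0.04 (SE 0.08, adjusted p = 0.761), Mcm2 of the replicative helicase by -0.33 (SE 0.07, adjusted p = 0.00143), and Cdc6, which loads it, by -0.01 (SE 0.10, adjusted p = 0.931). Replication promoters held E2F letters (TTTGGCG, a second form TTTCCCG and a further form TTTCGCG, on either strand) in 43.8% and CHR letters in 21.9%, against 18.8% and 71.9% in the promoters of the G2 and M list. Of 25 clustered histone genes measured 7 were lower (28.0%) and none was higher. The largest fall was that of the linker histone H1f1, with 10.48, 10.39 and 10.42 in differentiated and 9.25, 9.20 and 9.22 in etoposide cells (-1.21, SE 0.08, adjusted p = 1.85e-09). Among 51 genes of break repair and topoisomerases, Xrcc5, the Ku80 subunit of end joining (0.67), and Mus81 (0.64) were higher, Brca2 (-0.56) was lower and 48 were not past the threshold, including Top2b (-0.28) and Top1 (-0.23). The shares of 3.92% higher and 1.96% lower were under those of all genes. Brca2 lost the call without etoposide array 3, and 2 genes were lower without differentiated array 1 or with repeated quantile normalization. G1 cyclins and CDK inhibitors gave 1 call in 19 (5.26%), Myc (-0.85), which several lists hold.

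**Figure D2:**
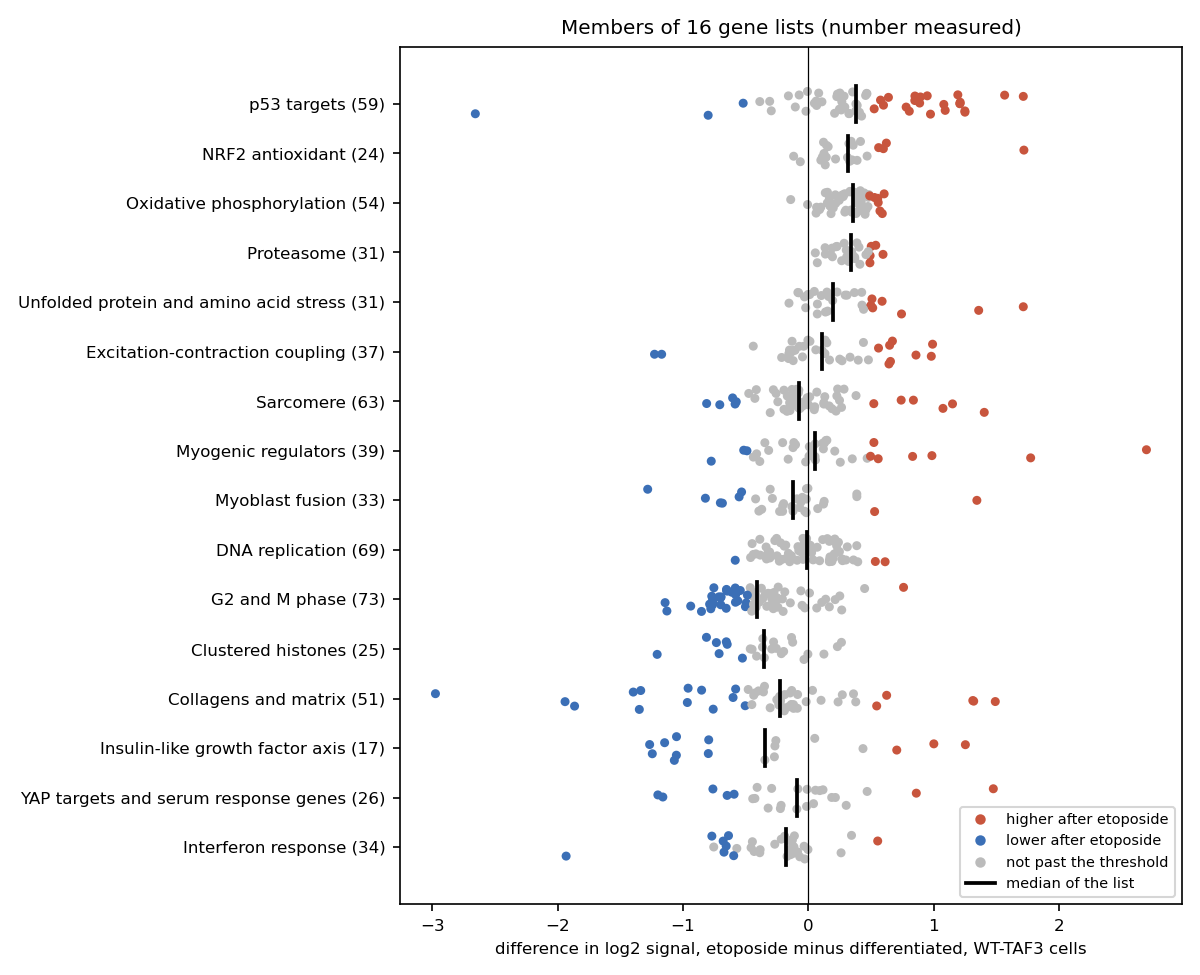
Difference in log2 signal between etoposide and differentiation in WT-TAF3 cells (horizontal axis) for each measured member of 16 gene lists. Red and blue points are genes past the threshold, grey points are not, and black lines mark list medians. The G2 and M list lies mostly left of 0 with a median of -0.41, while the replication list centres on -0.01. Members of the sarcomere and collagen lists lie on both sides.

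Early response genes were mixed after 7 hours. Of 44 genes 4 were higher (9.09%) and 3 lower (6.82%), against 4.71% and 2.92% of all genes. Fosl1, an AP-1 subunit, had signals of 10.11, 10.00 and 10.05 in differentiated and 11.001, 11.07 and 10.97 in etoposide cells (0.96, SE 0.06, adjusted p = 1.79e-09), and Atf3, a stress-induced factor, differed by 0.85, Klf4 by 0.81 and Klf10 by 0.59. Myc had signals of 10.69, 10.65 and 10.82 in differentiated and 9.90, 9.95 and 9.75 in etoposide cells and was lower (-0.85, SE 0.10, adjusted p = 3.64e-06), as were Dusp1 (-0.78), a MAP kinase phosphatase, and Socs3 (-0.67). Fos (-0.33, SE 0.08, adjusted p = 0.00688) and Egr1 (-0.24, SE 0.07, adjusted p = 0.0176) were under 1.4-fold.

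The largest rise among all named genes was that of Id2, which encodes an ID protein, a family that sequesters the E-protein partners of MYOD1. Id2 had signals of 8.46, 8.62 and 8.77 in differentiated and 11.22, 11.25 and 11.47 in etoposide cells, 6.48-fold higher with a difference of 2.70 (SE 0.11, adjusted p = 2.71e-12). Id3 had 7.53, 7.75 and 7.70 in differentiated and 9.24, 9.46 and 9.61 in etoposide cells (1.77, SE 0.12, adjusted p = 2.08e-09), while Id1 differed by 0.02 (SE 0.08, adjusted p = 0.856). Hey1, a Notch effector that opposes MYOD1, was higher (0.98), as was Myf5, the myogenic factor of undifferentiated myoblasts, with 11.05, 11.06 and 11.05 in differentiated and 11.88, 11.89 and 11.89 in etoposide cells (0.83, SE 0.07, adjusted p = 3.16e-08). Myog, the factor that starts terminal differentiation, was lower, with 7.74, 7.64 and 7.72 in differentiated and 6.88, 6.89 and 7.01 in etoposide cells (-0.77, SE 0.09, adjusted p = 3.88e-06), its etoposide arrays lying at or near the dim limit. Myod1 differed by -0.39 (SE 0.08, adjusted p = 0.0008), below the fold limit. In all, 7 of 39 regulators were higher (17.9%) and 3 lower (7.69%), against 4.71% and 2.92% of all genes. The other 2 that fell, Nfix (-0.52) and Hdac4 (-0.49), lost the call without etoposide array 3 and with arrays centred on their medians. Hdac4 lost it also without differentiated array 1 or 2.

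Markers of the myotube were lower in 5 of 8 cases (62.5%), against 2.92% of all genes. Mymk, myomaker, the membrane protein that fuses myoblasts, had 9.18, 9.16 and 9.43 in differentiated and 7.98, 7.999 and 7.95 in etoposide cells (-1.28, SE 0.11, adjusted p = 4.78e-08). Its partner Mymx differed by 0.12 (SE 0.10, adjusted p = 0.387), with overlapping groups. Myh3, the embryonic myosin heavy chain, had 6.85, 6.99 and 6.82 in differentiated and 6.41, 6.39 and 6.05 in etoposide cells (-0.60, SE 0.09, adjusted p = 4.44e-05), so that its differentiated arrays averaged 6.89, at the dim limit, and its etoposide arrays lay under it. Acta1, skeletal actin, differed by -0.58 (SE 0.10, adjusted p = 0.000302), and Tnnt3, fast troponin T, by -0.58 (SE 0.07, adjusted p = 6.41e-06), and both were lower. Ckm (-0.43, SE 0.08, adjusted p = 0.000715), titin (-0.07, SE 0.07, adjusted p = 0.456) and Mylpf (0.00, SE 0.07, adjusted p = 0.997) were not past the threshold. Of 33 fusion genes 6 were lower (18.2%) and 2 higher (6.06%), against 2.92% and 4.71% of all genes. The largest rise was the adhesion molecule Jam2 (1.34). With repeated quantile normalization 1 was higher.

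The sarcomere as a whole did not follow these markers. Of 63 genes 6 were higher (9.52%) and 5 lower (7.94%), against 4.71% and 2.92% of all genes. In both groups 14 were dim, and the median was -0.07. With repeated quantile normalization 8 were lower. The lower members were structural proteins of thick and thin filaments, Tnnc1 (-0.81), Mybph (-0.71), Myh3, Acta1 and Tnnt3, and of 19 thin filament genes none was higher. Of 25 Z-disc and signalling genes, by contrast, 5 were higher and none lower. Cavin4, a caveolar protein of muscle, had 8.48, 8.57 and 8.55 in differentiated and 9.86, 9.91 and 10.03 in etoposide cells (1.402, SE 0.08, adjusted p = 7.98e-10), the titin-associated ligase Trim55 7.45, 7.61 and 7.66 in differentiated and 8.74, 8.69 and 8.74 in etoposide cells (1.15, SE 0.07, adjusted p = 8.24e-10), and the Z-disc proteins Pdlim3 (1.07), Actn3 (0.84) and Ldb3 (0.52) were higher too, Ldb3 losing the call without etoposide array 2 and with repeated quantile normalization. Myl1 (0.74) was the thick filament gene that was higher.

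The CArG box, bound by the serum response factor, stood by the letters of its consensus in 8 of 63 sarcomere promoters (12.7%), against 1.41% of all promoters, and the E-box CAGCTG in 33.3% against 16.3%. Promoters with a CArG box belonged to genes that were lower (Acta1), higher (Ldb3) and not past the threshold (Actc1, -0.43, SE 0.09, adjusted p = 0.00106). Myh4 (-0.04), Myl3 (-0.15), Myom1 (-0.19) and Nebl (-0.08) carry the box as well and were not past the threshold. Acta1, Actc1 and Ldb3 are printed with the box in capitals, to show that genes of opposite direction carry it. The call of Ldb3, the only higher gene among them, was lost in some alternatives, as given above.

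Acta1, chr8:123894831-123894856, minus strand, CArG box from -73: cccgacacCCAAATATGGcttgggaa

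Actc1, chr2:114052905-114052930, minus strand, CArG box from -47: taaggcgaCCAAATAAGGcaaggtgg

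Ldb3, chr14:34588699-34588724, minus strand, CArG box from -35: gttacagtCCATTTATGGgcgcagca

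Genes of the neuromuscular synapse and of excitation-contraction coupling were more often higher than lower, 8 against 2 of 37. The shares were 21.6% and 5.41%, against 4.71% and 2.92% of all genes. Chrnd, the delta subunit of the acetylcholine receptor, had 9.04, 8.82 and 8.92 in differentiated and 10.01, 9.91 and 9.80 in etoposide cells (0.98, SE 0.08, adjusted p = 8.25e-08), and Chrng, the embryonic gamma subunit, 8.54, 8.48 and 8.53 in differentiated and 9.35, 9.39 and 9.38 in etoposide cells (0.86, SE 0.09, adjusted p = 5.99e-07). Chrnb1 (0.65), the receptor-clustering protein Rapsn (0.64), the synaptic kinase Musk (0.67) and Cacng1 (0.99) and Cacnb1 (0.56) of the calcium channel were higher, Cacnb1 not without differentiated array 3. Lrp4, the agrin receptor that acts with MUSK, was lower (-1.23, SE 0.16, adjusted p = 1.17e-05), as was triadin, Trdn, of the calcium release complex (-1.17, SE 0.11, adjusted p = 1.6e-07). The ryanodine receptor Ryr1 (0.33, SE 0.07, adjusted p = 0.00158) was under the fold limit.

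In the insulin-like growth factor axis the measured ligands, receptors and adaptors were lower. Of 17 measured genes of the list 8 were lower (47.1%) and 3 higher (17.6%), against 2.92% and 4.71% of all genes. Igf1 had signals of 9.02, 9.06 and 9.15 in differentiated and 7.75, 7.85 and 7.91 in etoposide cells (-1.24, SE 0.06, adjusted p = 7.53e-11) and Igf2 8.87, 8.87 and 9.13 in differentiated and 7.86, 7.98 and 7.82 in etoposide cells (-1.07, SE 0.11, adjusted p = 5.26e-07). All 5 receptors and adaptors measured were lower. These were Igf1r, with 11.46, 11.36 and 11.51 in differentiated and 10.45, 10.37 and 9.71 in etoposide cells (-1.27, SE 0.21, adjusted p = 0.000174), the clearance receptor Igf2r (-1.15), the insulin receptor Insr (-0.80) and the adaptors Irs1 (-0.80) and Irs2 (-1.05). Etoposide array 3 was the lowest of its group for each of these 5, yet all 3 etoposide arrays lay below the differentiated ones. The binding proteins and modulators were mixed, with Igfbp2 (1.25), the mRNA-binding protein gene Igf2bp3 and the protease Pappa (0.70) higher, Igfbp4 (-1.05) lower, and Igfbp5 at -0.27 (SE 0.14, adjusted p = 0.183), which was not past the threshold.

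Matrix genes were lower in 13 of 51 cases (25.5%) and higher in 5 (9.80%), against 2.92% and 4.71% of all genes. Lum, the proteoglycan lumican, had 9.30, 9.22 and 9.45 in differentiated and 6.47, 6.27 and 6.31 in etoposide cells (-2.97, SE 0.09, adjusted p = 4.7e-14). All its etoposide arrays were under the dim limit, so that Lum was at least 5.41-fold lower when set against that limit. Decorin, Dcn, had 13.49, 13.52 and 13.54 in differentiated and 12.12, 12.12 and 12.12 in etoposide cells (-1.396, SE 0.07, adjusted p = 4.84e-11). Prelp (-1.94), nidogen Nid2 (-1.86), Col6a1 (-1.35), Col6a2 (-1.34), Col1a1 (-0.96) and Col3a1 (-0.58) were lower, while Col1a2 (-0.13, SE 0.09, adjusted p = 0.317) and Fn1 (-0.19, SE 0.09, adjusted p = 0.16) were not past the threshold. Tenascin C, Tnc, a matrix protein of wounds, went the other way, with 11.12, 10.97 and 11.18 in differentiated and 12.86, 12.65 and 12.23 in etoposide cells (1.49, SE 0.13, adjusted p = 1.45e-07), as did versican, Vcan (1.31), and Col18a1 (1.32). Of 10 fibroblast and smooth muscle markers, Lum, Col1a1 and Dpt (-0.56, dim in both groups) were lower, Des (0.50) was higher and 6 were not past the threshold, and their part in the matrix result was not tested.

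Signalling lists held genes of both directions. Of 34 growth factor ligands and receptors 4 were higher (11.8%) and 7 lower (20.6%). Of 39 TGF-beta, BMP and Wnt genes 5 were higher (12.8%) and 6 lower (15.4%). Of 15 Notch genes 4 were higher (26.7%) and 3 lower, and of 18 quiescence genes none was higher and 4 were lower (22.2%). Over all genes 4.71% were higher and 2.92% lower. Of 9 YAP targets 5 were lower (55.6%) and none was higher, led by Ccn2 (-1.20), the connective tissue growth factor, and Amotl2 (-1.16). Of 17 serum response genes 2 were higher (11.8%), Plaur (1.47) and Actg2 (0.86), and none was lower. The receptor genes Egfr (-1.64), Gfra1 (-1.39), Tgfbr3 (-1.44) and Pdgfrb (-1.03), the TGF-beta family ligands Inhba (-1.71) and Bmp4 (-1.30) and the Notch ligands Dll1 (-1.31) and Jag1 (-0.57) were lower, and Notch1 (0.85), Jag2 (0.61), Erbb3 (1.13) and Ereg (0.75) were higher. So were the ligands Pdgfa (0.67), Vegfc (0.69) and Tgfb1 (0.58), the latent TGF-beta binding proteins Ltbp1 (0.58) and Ltbp2 (1.04) and the Wnt effector Lef1 (0.57). Jag1 lost the call without etoposide array 3. Of 34 interferon response genes 7 were lower (20.6%) and 1 (2.94%), Ifi35 (0.55), was higher, though not without etoposide array 3 or with repeated quantile normalization. Ifit3 had 7.69, 9.17 and 8.80 in differentiated and 6.75, 6.78 and 6.33 in etoposide cells (-1.93, SE 0.42, adjusted p = 0.00224), and its differentiated arrays were widely spread. Its etoposide arrays were under the dim limit, as were those of Mmp13, and against that limit Ifit3 was at least 3.17-fold and Mmp13 at least 1.801-fold lower. Among secreted inflammatory genes 7 of 32 were lower (21.9%), including Mmp13 (-1.51), Ccl2 (-0.73) and Ccl7 (-0.91). Il33 (0.94) and Ptges (0.70) were higher (6.25%), and Il6 differed by 0.03 (SE 0.09, adjusted p = 0.81).

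In the NRF2, amino acid stress, proteasome and respiration lists no gene was lower after etoposide. Of 24 NRF2 targets 4 were higher (16.7%), none was lower and 22 of the differences were above 0. Nqo1, the quinone reductase, had 8.43, 8.37 and 8.55 in differentiated and 9.96, 10.10 and 10.44 in etoposide cells (1.72, SE 0.13, adjusted p = 1.81e-08), and Hmox1 (0.62), Gclm (0.56) and Taldo1 (0.60) were higher. Of 17 genes of the amino acid response 6 were higher (35.3%). Among them were Sesn2 (1.71), which the p53 list holds too, Ddit4, an inhibitor of mTORC1 (1.36), Asns (0.74) and Psat1 (0.59). Markers of the unfolded protein response, Hspa5 (0.10, SE 0.06, adjusted p = 0.267) and Ddit3 (0.07, SE 0.08, adjusted p = 0.539), were not past the threshold. All 31 proteasome genes had differences above 0, with 5 higher (16.1%), and so had 52 of 54 genes of oxidative phosphorylation, with 7 higher (12.96%). Over all genes 4.71% were higher. The medians were 0.34 and 0.36. Most of these differences were under 1.4-fold, and both counts moved with single arrays. The 5 proteasome genes became 1 without etoposide array 3, 3 without differentiated array 1 and 2 with repeated quantile normalization. The 7 respiration genes became 3 without etoposide array 3, 13 without etoposide array 1 and 11 with median centring. Of the whole unfolded protein and amino acid stress list 7 genes were higher, and 4 with repeated quantile normalization. No gene of cholesterol synthesis in 23 was past the threshold. Taf3 (-0.01, SE 0.07, adjusted p = 0.918), Tbp (0.25, SE 0.11, adjusted p = 0.1), Pip4k2b (-0.04, SE 0.10, adjusted p = 0.774) and Actb (-0.03, SE 0.06, adjusted p = 0.731) were not past the threshold either.

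Several large changes lay in other genes. Among the rises were those of Stmn2, a neuronal regulator of microtubules, with 8.98, 9.03 and 9.14 in differentiated and 11.51, 11.56 and 11.79 in etoposide cells (2.57, SE 0.09, adjusted p = 5.58e-13), the annexin Anxa8 (2.36), the protease Adam8 (2.10), the carbonic anhydrases Car9 (1.96) and Car3 (1.92) and the interleukin 1 antagonist Il1rn (1.88). The ubiquitin ligase Rnf128 (1.86), Socs2 (1.70), an inhibitor of cytokine signalling, and Tnfsf9 (1.62), a TNF ligand, were higher too. All differentiated arrays of Car9 and Rnf128 were under the dim limit, against which Car9 was at least 2.53-fold and Rnf128 at least 3.44-fold higher. Among the falls were those of the carboxypeptidase Cpa1, with 11.76, 11.63 and 11.65 in differentiated and 8.71, 8.77 and 8.99 in etoposide cells (-2.85, SE 0.08, adjusted p = 1.43e-14), the complement protease C1s1 (-2.83), the retinal reductase Dhrs3 (-2.55), Serpina6 (-2.53), the transcription factor Osr2 (-2.49), the protease Adamts1 (-2.35), the ferritin receptor Scara5 (-2.22), thyroglobulin, Tg (-2.06), and the imprinted gene Mest (-1.90). Serpina6 was under the dim limit on all etoposide arrays and at least 3.61-fold lower against it.

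Markers of other cell types were mostly dim or not past the threshold, while none of the 9 myoblast and 8 myotube markers was dim in both groups. Myh3 missed this only narrowly, since its differentiated arrays averaged 6.89, at the dim limit. Of 10 macrophage markers 7 were dim in both groups and Cd68, a lysosomal protein, was higher (0.52), a call that was lost without differentiated array 2. None of 9 fat cell, 8 bone and cartilage or 10 endothelial markers was past the threshold. Of 10 epithelial markers Krt14 (1.27) and Krt19 (1.28) were higher, while Epcam (-0.18), Cdh1 (-0.08) and Krt8 (0.03) were not, and of 10 neural markers Stmn2, Map2 (1.004) and Tubb3 (0.82) were higher, while Snap25 (-0.12), Elavl3 (-0.06) and Rbfox3 (-0.24) were not. Of the myoblast markers Des (0.50) and Myf5 were higher, Des not without differentiated array 2 or etoposide array 1, and 7 of 9 were not past the threshold. The fibroblast and smooth muscle markers, given with the matrix genes, had 3 of 10 lower and 1 higher. Whether other cells contributed to any result was not tested.

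The direction of change went with gene length. Length is the RefSeq span from start to end, known for all 18553 protein-coding genes tested, and the classes were chosen after the values were seen. Of genes up to 5 kb 1.37% were lower and 4.01% higher. The share that was lower was 2.33% between 10 and 20 kb, 4.48% between 50 and 100 kb, 5.52% between 100 and 200 kb and 10.6% between 200 and 500 kb, while the share that was higher fell from 6.99% at 5 to 10 kb to 2.79% at 200 to 500 kb. The median length was 44.6 kb for lower, 15.9 kb for higher and 19.2 kb for all protein-coding genes. Among genes over the dim limit the shares that were lower ran from 2.25% at 5 to 10 kb to 15.98% at 200 to 500 kb. The pattern was not particular to WT-TAF3 cells. Of all protein-coding genes of 200 to 500 kb, 18.3% were lower in WT-TAF3 sh-PIP4K2B and 17.7% in KK-TAF3 sh-PIP4K2B cells. Up to 5 kb these shares were 2.06% and 1.70%. Igf1r spans 281 kb, Egfr 162 kb, Tgfbr3 183 kb and Maml2, a Notch coactivator that was lower as well (-1.20), 413 kb, against 2.29 kb for Id2, 4.29 kb for Btg2 and 17.7 kb for Sesn2. Single genes went against the pattern in both directions. Long genes that were higher included Ltbp1 (387 kb), Map2 (267 kb), Pappa (233 kb), versican (87.7 kb) and Tnc (87.2 kb). Some of the largest falls lay in genes under the median length, among them Lum (7.2 kb), Cpa1 (6.14 kb) and Trp53i11 (14.4 kb).

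Etoposide array 3 moved with this pattern. Over 1583 genes above 100 kb and over the dim limit its median deviation from the other 2 etoposide arrays was -0.11, against 0.08 and 0.06 for arrays 1 and 2, and over 11337 shorter genes it was 0.04. Without array 3 the share that was lower was still 1.37% up to 5 kb and 8.24% between 200 and 500 kb. Between 100 and 200 kb it dropped to 3.81%, with 3.88% higher. The share that was higher was then 3.08% up to 5 kb, 5.55% between 5 and 10 kb and 3.63% between 200 and 500 kb. Its fall with length was thus smaller without array 3. Leaving out any of the 6 arrays, or scaling by medians or by quantiles again, left the lower share between 8.24% and 12.8% at 200 to 500 kb. Up to 5 kb the lower share stayed between 1.18% and 1.54%. The higher share ranged from 5.55% to 8.80% at 5 to 10 kb and from 2.79% to 3.63% at 200 to 500 kb. The part of array quality in the pattern was not tested.

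**Figure D3:**
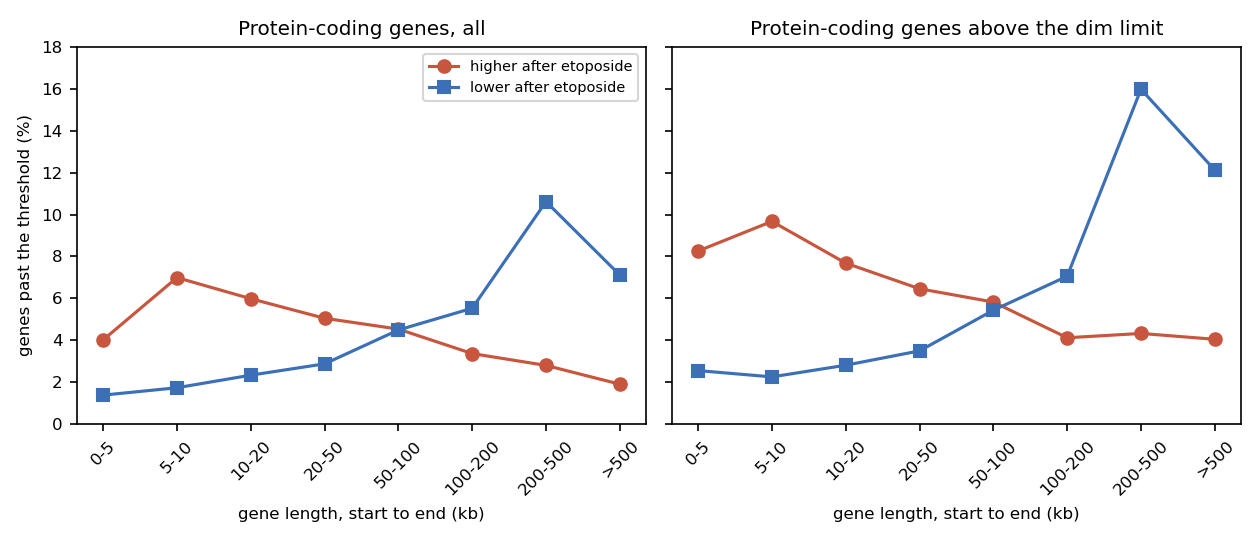
Share of protein-coding genes past the threshold (vertical axis, %) in classes of gene length (horizontal axis, kb from start to end) in WT-TAF3 cells, for all genes (left) and for those over the dim limit (right). Red circles are genes higher and blue squares genes lower after etoposide. The share of lower genes climbs to 10.6% (left) and 15.98% (right) at 200 to 500 kb, and the class above 500 kb, with 211 and 99 genes, lies at 7.11% and 12.1%.

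The treatment difference was compared with that of the other genotypes, whose arrays are separate. KK-TAF3 sh-PIP4K2B cells, also called KK-TAF3 cells below, differ from WT-TAF3 cells in the TAF3 mutant and in the shRNA together. The parts of mutant and shRNA in a difference between these cells and WT-TAF3 cells cannot be told apart by that comparison. In WT-TAF3 sh-PIP4K2B cells 726 genes were higher (3.64%) and 1257 lower (6.30%), and in KK-TAF3 sh-PIP4K2B cells 702 (3.52%) and 959 (4.81%). Of the 582 genes lower in WT-TAF3 cells, 477 were lower in WT-TAF3 sh-PIP4K2B cells (82.0% of the former and 37.9% of the latter list), 464 in KK-TAF3 cells (79.7% and 48.4%) and 429 in both. Of the 940 higher genes, 475 were higher in WT-TAF3 sh-PIP4K2B cells (50.5% and 65.4%), 517 in KK-TAF3 cells (55.0% and 73.6%) and 398 in both. Genes past the threshold in opposite directions were Frmpd1, Myl1 and Sema3d, which were higher in WT-TAF3 cells and lower in WT-TAF3 sh-PIP4K2B cells, and Sema3d was lower in KK-TAF3 cells too. In WT-TAF3 cells Sema3d lost the call without etoposide array 1.

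The p53 targets were more often higher than lower in each genotype. Their median was 0.38, 0.33 and 0.39 in WT-TAF3, WT-TAF3 sh-PIP4K2B and KK-TAF3 sh-PIP4K2B cells, with 22, 21 and 25 of 59 targets higher and 3, 4 and 3 lower. Sesn2 differed by 1.71, 1.66 and 1.64 and Mdm2 by 0.97, 0.88 and 0.88. Id2 (2.70, 2.64 and 2.27) and Igf1r (-1.27, -1.61 and -1.51) were alike in direction as well. A test of the difference between genotypes, which is the treatment difference of the other genotype minus that of WT-TAF3 cells, was past the threshold for 4 and 2 of the 59 targets. Both such tests use the WT-TAF3 arrays. Over all genes 388 lay above and 413 below WT-TAF3 cells in the test of WT-TAF3 sh-PIP4K2B cells (1.95% and 2.07%), and 78 above and 65 below in that of KK-TAF3 sh-PIP4K2B cells (0.391% and 0.326%). These splits rest on the scaling. With arrays centred on their medians, which moved the median over all genes from 0.04 to -0.10 and from 0.00 to -0.09, they were 66 and 1290 in the former test and 23 and 60 in the latter, and with repeated quantile normalization 139 and 282 in the former.

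The G2 and M list differed. Its median was -0.41 in WT-TAF3, -0.28 in WT-TAF3 sh-PIP4K2B and 0.02 in KK-TAF3 sh-PIP4K2B cells, with 29, 16 and 1 of 73 genes lower. The test of the difference from KK-TAF3 sh-PIP4K2B cells was past the threshold for 19 of the 73 (26.0%), against 0.717% of all genes. All 19 lay above WT-TAF3 cells. The test of the difference from WT-TAF3 sh-PIP4K2B cells was past it for 2 (2.74%), against 4.02% of all genes. The count of 2 became 10 with repeated quantile normalization, 0 with median centring and 0 to 2 with 1 array left out. It was lowest without differentiated array 1 of WT-TAF3 cells. Ccna2 differed by -0.76 between treatments in WT-TAF3 cells, by -0.35 in WT-TAF3 sh-PIP4K2B and by -0.09 in KK-TAF3 sh-PIP4K2B cells. The difference in KK-TAF3 sh-PIP4K2B cells exceeded that of WT-TAF3 cells by 0.67 (SE 0.09, adjusted p = 0.00141). For Aurkb that excess was 0.67 (SE 0.09, adjusted p = 0.00161), for Plk1 0.65 (SE 0.12, adjusted p = 0.0123) and for Ccnb2 0.59 (SE 0.11, adjusted p = 0.0137). The median level of the list was 9.58, 9.57 and 9.68 on the differentiated and 9.17, 9.20 and 9.10 on the etoposide arrays of WT-TAF3 cells, and 9.67, 9.71 and 9.69 against 9.71, 9.71 and 9.82 in KK-TAF3 cells. The lowest levels of the 6 groups were thus those of WT-TAF3 cells after etoposide. These levels were described after the counts were seen. The count of 19 became 3 with arrays centred on their medians, 39 with a repeated quantile normalization, and 13 to 24 with 1 array left out.

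Muscle genes were past both tests between genotypes. Of 63 sarcomere genes 11 were below and 1 above WT-TAF3 cells (19.05%) in the test of WT-TAF3 sh-PIP4K2B cells, and 5 were past that of KK-TAF3 sh-PIP4K2B cells (7.94%). Of 37 coupling genes 11 (29.7%) and 3 (8.11%) were past these tests, all below. Over all genes the shares were 4.02% and 0.717%. Pdlim3 differed between treatments by 1.07 in WT-TAF3 and 0.09 in WT-TAF3 sh-PIP4K2B cells, Chrnd by 0.98 and 0.12, and Mylpf by 0.00 and -0.998. For myomaker the difference in KK-TAF3 sh-PIP4K2B cells was above that of WT-TAF3 cells by 0.97 (SE 0.15, adjusted p = 0.00341), and for Myog by 0.62 (SE 0.13, adjusted p = 0.0281). In cholesterol synthesis, where no gene was past the threshold in WT-TAF3 cells, 12 of 23 were lower in WT-TAF3 sh-PIP4K2B and 9 in KK-TAF3 cells, and 11 and 8 passed the test of the difference. Hmgcs1 differed by -0.26, -1.10 and -0.92 and Sqle, squalene epoxidase, by -0.21, -0.79 and -0.72. The median level of the cholesterol list averaged 10.41 on differentiated and 10.52 on etoposide arrays of WT-TAF3 cells. In WT-TAF3 sh-PIP4K2B cells it averaged 10.84 and 10.35, and in KK-TAF3 cells 10.81 and 10.40. The genotypes thus lay further apart on differentiated than on etoposide arrays. For the coupling list these pairs were 8.34 and 8.69, 8.60 and 8.51, and 8.42 and 8.36. The count of 8 dropped to 1 without differentiated array 1 of WT-TAF3 cells, that of 11 to 7 without etoposide array 2 of WT-TAF3 sh-PIP4K2B cells, and the counts of 11 coupling genes to 6 and of 12 sarcomere genes to 8 without differentiated array 1 of WT-TAF3 cells.

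**Figure D4:**
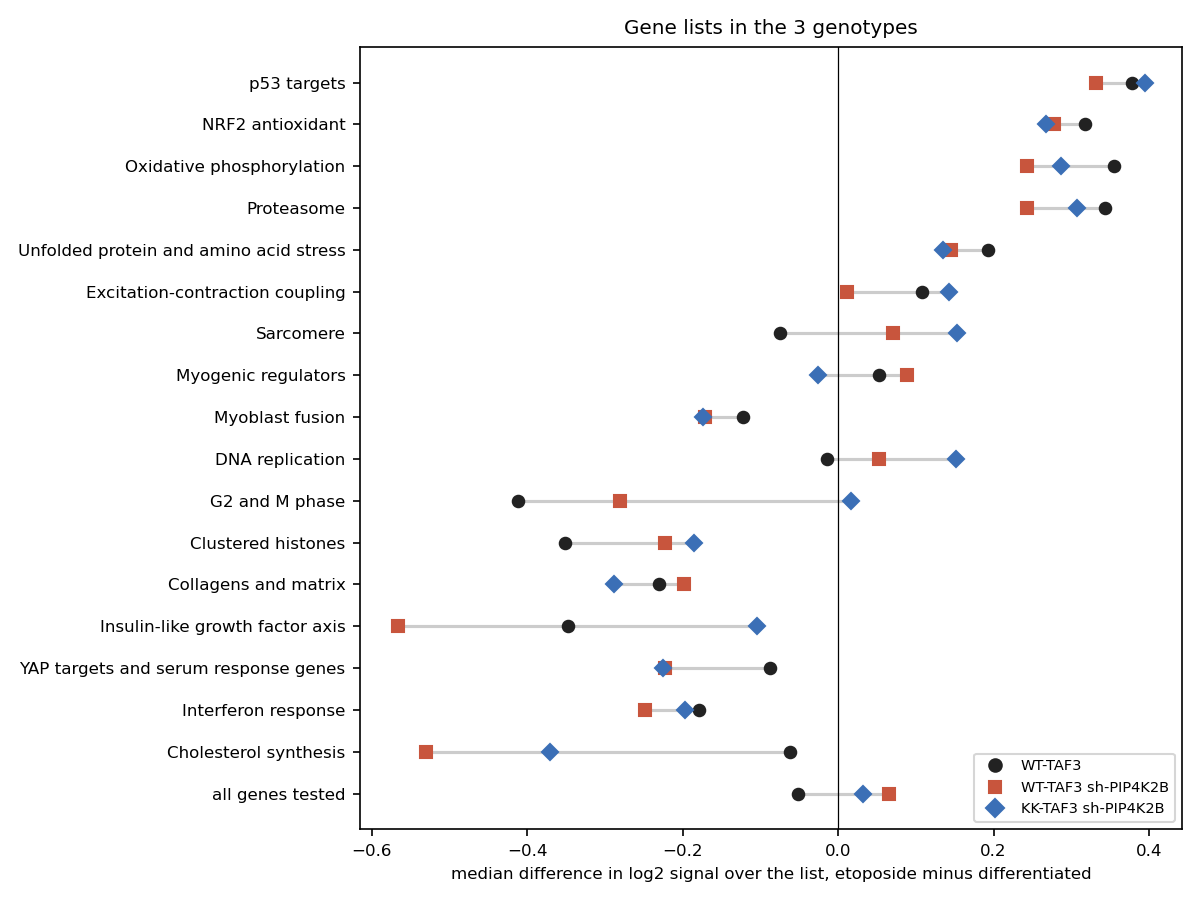
Median difference in log2 signal between etoposide and differentiation (horizontal axis) over the measured members of 17 gene lists and over all genes tested, in WT-TAF3 (black circles), WT-TAF3 sh-PIP4K2B (red squares) and KK-TAF3 sh-PIP4K2B cells (blue diamonds). The p53 medians lie between 0.33 and 0.39, while those of the G2 and M list run from -0.41 to 0.02. A median carries no error here, since members are not replicates.

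Single genes differed between genotypes as well. Car9, a carbonic anhydrase induced by hypoxia, had signals of 5.94, 6.43 and 6.43 in differentiated and 8.39, 8.24 and 8.05 in etoposide cells, a difference of 1.96 (SE 0.12, adjusted p = 1.1e-09) in WT-TAF3 cells, against 0.37 in WT-TAF3 sh-PIP4K2B and 0.55 in KK-TAF3 cells. The differences from WT-TAF3 cells were -1.59 (SE 0.17, adjusted p = 4.96e-05) and -1.41 (SE 0.17, adjusted p = 0.00091). The differentiated arrays of all 3 genotypes were under the dim limit, and the etoposide arrays averaged 8.22, 6.91 and 7.29 in WT-TAF3, WT-TAF3 sh-PIP4K2B and KK-TAF3 sh-PIP4K2B cells. Trp53i11 fell by more in WT-TAF3 cells than in either (-1.50 and -1.72), with differences of 1.16 (SE 0.12, adjusted p = 2.29e-05) and 0.93 (SE 0.12, adjusted p = 0.00091). Igfbp4 differed by -1.05, -0.57 and -0.08, and the BMP antagonist Grem1 by -0.45, 0.69 and 0.24. Of the genes past the test against WT-TAF3 sh-PIP4K2B cells, 127 of 388 above and 21 of 413 below were dim in WT-TAF3 cells.

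**Figure D5:**
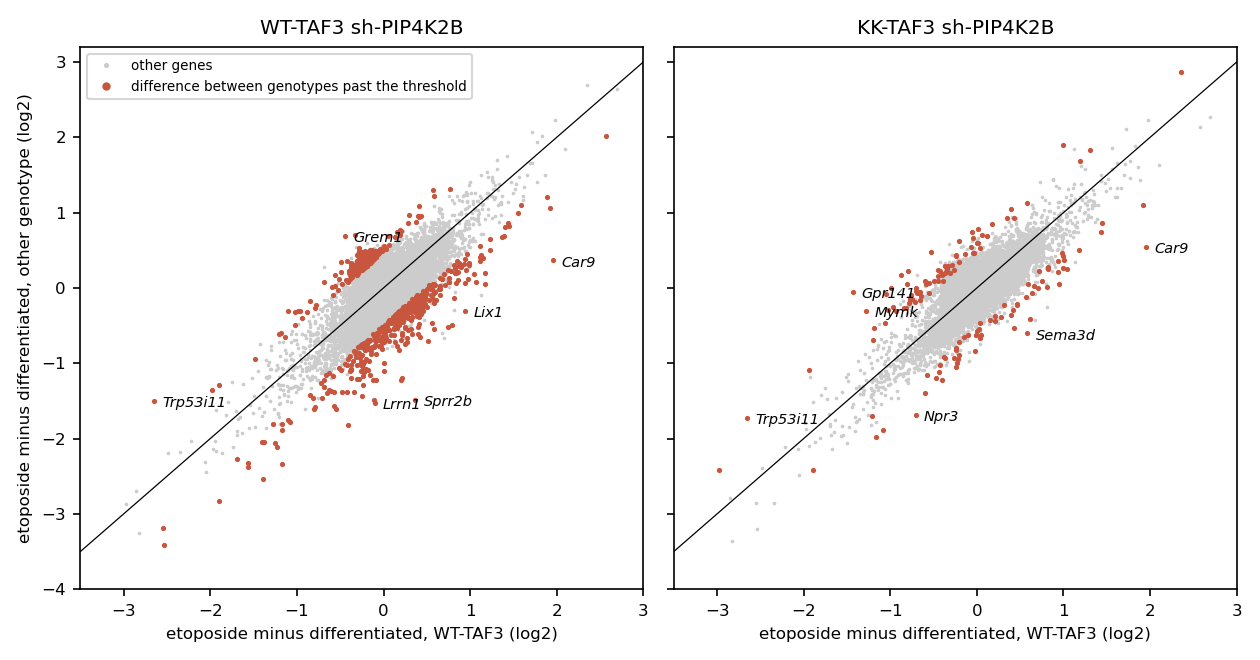
Difference in log2 signal between etoposide and differentiation of each gene in WT-TAF3 cells (horizontal axes) against the same difference in WT-TAF3 sh-PIP4K2B (left) and KK-TAF3 sh-PIP4K2B cells (right). Red points are the 801 and 143 genes whose treatment difference was past the threshold of the test between genotypes, grey points all other genes, and the line marks equal values. Car9, dim on every differentiated array, lies below the line in both panels at 1.96 against 0.37 and 0.55, and Trp53i11 above it at -2.66 against -1.50 and -1.72.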

How the data were processed

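Expression was measured on 18 Affymetrix mouse gene arrays of C2C12 cells, 3 per group, from 100 ng of RNA each. The authors deposited log2 signals made with Affymetrix Expression Console by RMA, which corrects background, normalizes by quantiles and summarises probes; the software version is not given in the sources used here. The platform annotation and the chip named in the study's supplement differ in version, and gene names follow the former. Rows with exactly 1 symbol were kept, the brightest row of a gene was used, and Cdkn1a, whose row carries several symbols, is not analysed here. Since the values are normalized intensities, the number of arrays limits the precision and no read depth applies. The paper calls the arrays biological triplicates.

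One limma model of 6 group means was fitted over all 18 arrays and p-values were adjusted by Benjamini-Hochberg over 19938 genes. The study's limits of p under 0.05 and 1.4-fold were used, with p adjusted here; its test, and whether its p was adjusted, are not stated. Differences between genotypes were contrasts of the same fit. Named genes were key members of each list, the 20 largest separated changes in each direction, up to 6 further members per list past the threshold in each direction, and up to 8 genes per direction in each test between genotypes. Members, lists and tests were chosen with earlier results of these data known. The scripts were tested on simulated data. Alternatives were other tests, limits, filters, row rules, scalings, a replicate block and leaving out arrays. Promoters, without those of chromosome 18, and gene spans came from RefSeq (GRCm38.p6). The model ran in R 4.3.3 with limma 3.58.1. Counts and figures were made with matplotlib 3.10.9, numpy 2.4.6 and pandas 2.3.3 under Python 3.11.15.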

Additional observations from a re-analysis of the deposited data

Results flagged for a closer look

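The treatment difference, etoposide minus differentiation, of some genes was larger or smaller in another genotype than in WT-TAF3 cells by the limma test of that difference. In WT-TAF3 sh-PIP4K2B cells it was above that of WT-TAF3 cells for 388 genes and below it for 413. In KK-TAF3 sh-PIP4K2B cells it was above for 78 and below for 65.

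Below WT-TAF3 cells, the largest values in WT-TAF3 sh-PIP4K2B cells on the log2 scale were those of the cornified envelope gene Sprr2b (-1.86), Car9 (-1.59), the monooxygenase Fmo1 (-1.43), Lrrn1 (-1.43), BC023105 (-1.41), C1qtnf3 (-1.37), Frmpd1 (-1.29) and the myosin light chain Myl1 (-1.26). Above WT-TAF3 cells they were Trp53i11 (1.16), the BMP antagonist Grem1 (1.14), Prp2 (1.03), Klk1b11 (0.84), Unc45bos (0.82), the noradrenaline transporter Slc6a2 (0.80), Rasd2 (0.77) and the growth factor Hgf (0.77).

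Below WT-TAF3 cells, the largest values in KK-TAF3 sh-PIP4K2B cells were those of Car9 (-1.41), the semaphorin Sema3d (-1.19), the adenylate kinase Ak4 (-1.02), the natriuretic peptide receptor Npr3 (-0.98), Dync1i1 (-0.97), Lix1 (-0.89), Mctp1 (-0.83) and the carbonic anhydrase Car3 (-0.82). Above WT-TAF3 cells they were Gpr141 (1.38), Ces2g (1.06), the transcription factor Etv1 (1.01), Emb (1.001), Dkk3 (0.98), myomaker, Mymk (0.97), Igfbp4 (0.97) and Trp53i11 (0.93). Car9 and Trp53i11 stand in both lists, and both lists rest on the same WT-TAF3 arrays. Some of these values rest on signals under the dim limit of 6.89. In WT-TAF3 cells every array of Sprr2b, Lrrn1, BC023105 and Klk1b11 was under it, as were the differentiated arrays of Car9 and the etoposide arrays of Gpr141, Rasd2 and Slc6a2.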

How the results depend on the processing

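In WT-TAF3 cells the 940 higher and 582 lower genes became 2901 and 1708 with no fold limit, 110 and 149 with a 2-fold limit and 214 and 204 when the change was tested against 1.4-fold. Leaving out 1 WT-TAF3 array gave 815 to 1093 higher and 501 to 689 lower genes. Of 258 named genes past the threshold, 27 lost the call without etoposide array 3, 4 to 10 without any other WT-TAF3 array, 21 with repeated quantile normalization, 6 with median centring and 4 with the mean of all rows of a gene. No called named gene changed sign in any alternative run. The replicate numbers do not pair the samples (correlations of the deviations of same-numbered arrays of -0.08, 0.08 and -0.05). With the number as a block the counts were 944 and 587, none of the named genes lost its call, and the tests between genotypes gave 258 above and 396 below in WT-TAF3 sh-PIP4K2B and 81 and 65 in KK-TAF3 cells. The tests between genotypes were less stable. The 801 genes of WT-TAF3 sh-PIP4K2B cells became 1365 with unadjusted p, 1329 with no fold limit, 29 with a 2-fold limit, 10 against 1.4-fold, 455 from the compared groups alone, 485 over genes above the median, 274 over every transcript cluster, 1356 with median centring and 421 with repeated quantile normalization. With 1 array left out they ranged from 180 without differentiated array 1 of WT-TAF3 cells to 2668 without etoposide array 1 of WT-TAF3 sh-PIP4K2B cells (an alternative chosen after seeing the data), and were 228, 252 and 482 without differentiated array 2, etoposide array 1 or etoposide array 3 of WT-TAF3 cells and 185, 349, 193 and 356 without differentiated array 2 or 3 or etoposide array 2 or 3 of WT-TAF3 sh-PIP4K2B cells. The 143 genes of KK-TAF3 cells became 374 with unadjusted p, 7 with a 2-fold limit, 0 against 1.4-fold and 83 with median centring. With 1 array left out they ranged from 73 without differentiated array 1 of WT-TAF3 cells to 191, and were 81, 85 and 91 without differentiated array 2, etoposide array 1 or 2 of WT-TAF3 cells and 79 and 86 without differentiated array 1 or 2 of KK-TAF3 cells. The causes were not tested. Signals under the dim limit of 6.89, those of 6427 genes, set no lower bound on a level.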
